A study of Mus musculus with 6 samples.

Results

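The cadherin and protocadherin genes were taken by symbol: every gene named Cdh or Pcdh followed by a number, and every gene of the clustered Pcdha, Pcdhb and Pcdhg arrays, with Cdh19 left out because it marks glia in the naming of cells. The rule gave 91 of the 31053 genes in each of the 6 matrices: 22 cadherins, 12 protocadherins outside the clusters, and 14 alpha, 22 beta and 21 gamma protocadherins. The matrices came from single-nucleus RNA sequencing (10x Genomics) of enteric nervous system nuclei sorted from the colon of wild-type C57BL/6J mice by a DNA stain (DAPI) and by INTACT, a tag on the nuclear envelope. Control mice gave 2 libraries, mice under daily restraint for 7 days (Stress) gave 3, and mice injected with dexamethasone, a synthetic glucocorticoid, for 7 days gave 1. All groups share the strain and the sort, and the labels give neither the age, the number of animals in a library, nor what drives the tag, so p-values measure the spread between libraries.

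Cadherins are calcium-dependent adhesion proteins that bind partners on the neighbouring cell, mostly of their own kind. Classical cadherins hold the junction to actin through catenins, and the type II branch (Cdh6, Cdh8, Cdh10, Cdh12, Cdh18 and relatives) is known for combinations that differ between neuron populations and guide sorting and synapse choice. Protocadherins lack the catenin tail. The clustered ones give neurons individual surface identities, and those of the alpha and gamma arrays are read from alternative first exons. The protocadherins outside the clusters, among them the delta protocadherins Pcdh7, Pcdh9, Pcdh10, Pcdh17 and Pcdh19, are expressed by cell type. In the gut wall, the neurons and glia come from neural crest and sit in ganglia between muscle layers, beside an epithelium held together by E-cadherin (Cdh1).

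After a filter on genes and mitochondrially encoded reads, 3417 of 11040 barcodes were kept as nuclei and fell into 22 clusters. Library totals ran from 6057994 to 14838057 unique molecular identifiers (UMIs, counted molecules), and the median per kept nucleus from 1625 in Stress 1 to 3810 in the Dexamethasone library. There were 479 neuron-like and 877 glia-like nuclei, with 31 to 158 and 113 to 200 in a library, and the remainder included epithelium-like, smooth muscle-like, fibroblast-like and endothelium-like nuclei despite the sort. Some clusters were left unnamed and outside every class. They included 290 nuclei whose leading genes held the epithelium markers Cftr and Lgr5, 214 led by Slc12a8 and including Spdef, and 87 led by Fcgbp. The epithelium-like class therefore leaves these nuclei out. In another unnamed cluster, 52 nuclei led by Penk, Tac1 and Syt4 scored highest for neuron markers but had a median of 675 UMIs. Of those, 39 came from the Dexamethasone library, which had 31 neuron-like nuclei. Of the 10 neuron markers, Tubb3 was at 0 UMIs in neuron-like nuclei of every library and the other 9 were counted. Pairs of libraries shared 0 to 3 barcodes. By the file headers, the Dexamethasone counts were made with another version of the counting program, which cannot be told apart from the treatment. Members were kept out of the genes that built the clusters. Levels are in CPM, UMIs per 1000000 UMIs of the nuclei summed, a scale on which one gene can be compared between cells but not different genes with each other.

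Of the 91 members, 34 had at least 1 UMI in the kept nuclei and 28 had at least 20. Those 34 were 21 of the 22 cadherins, all 12 protocadherins outside the clusters and 1 alpha protocadherin, and they held 65303 UMIs. The 6 below 20 UMIs were Cdh16, Cdh22, Cdh26, Pcdh8, Pcdh12 and Pcdha1, and Cdh3, with 24, fell below 20 in the named classes. The clustered protocadherins were almost uncounted. Over all 11040 barcodes, the 22 beta and 21 gamma genes were at 0 UMIs, which in 58954323 UMIs allows a summed level of up to 0.0509 CPM by counting error alone, and the 14 alpha genes had 16 UMIs, every one assigned to Pcdha1. Each of the 57 members at 0 (56 clustered protocadherins and Cdh15) has a gene body that lies wholly inside other gene bodies on its strand in GENCODE M21 (GRCm38). Pcdha1, with 9021 of its 257478 bases outside any other gene, was the clustered gene that received UMIs. Over all genes found in that annotation, 651 of 652 genes wholly inside others were at 0, the remaining one having 7 UMIs, against 5938 of 30282 other genes. The 3 gene models that span much of the clusters on chromosome 18, Gm42416, Gm37013 and Gm37388, were at 0 as well. Levels of clustered protocadherins could not be read from these counts in any cell class, and the cause of the zeros was not tested.

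**Figure D1:**
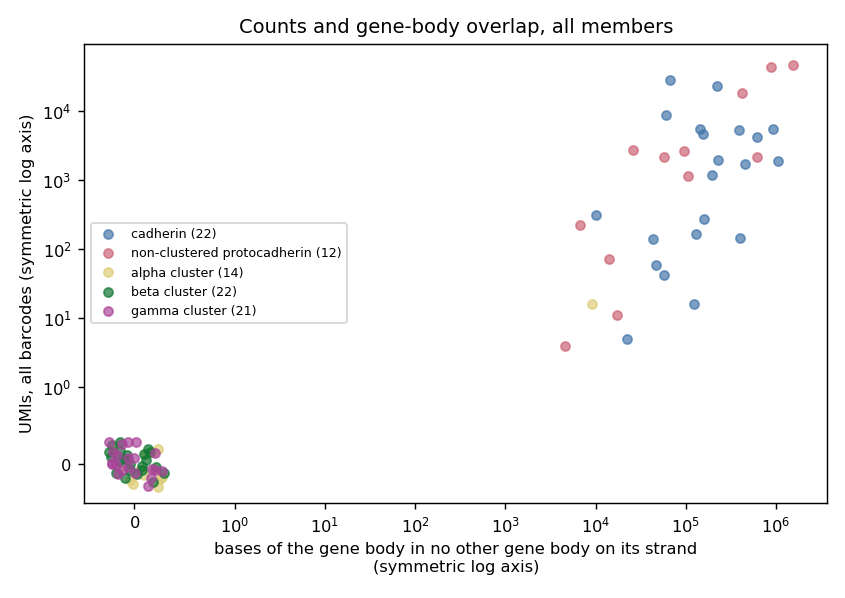
UMIs over all barcodes (vertical, symmetric log axis) against the bases of each gene body that lie in no other gene body on its strand (horizontal, symmetric log axis), 1 point per member, coloured by family, with points at 0 spread slightly for sight. The 57 members with no base of their own sit at 0 UMIs, and the 34 others all have UMIs.

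Each of the 27 members with at least 20 UMIs in the named classes was read against 9 cell classes. The highest class was neuron-like for 11 members, fibroblast-like for 6, glia-like for 4, vascular endothelium-like for 4 and epithelium-like for 2. For 19 of the 27, the 95% Poisson intervals of the highest and the next class did not overlap, where the interval covers counting error only. Fewer led in every library compared: 5 of the 11 neuron-like, 1 of the 6 fibroblast-like, 2 of the 4 glia-like and both epithelium-like members. Vascular endothelium-like nuclei could be compared in 1 library. These class differences are descriptions, since the classes were made from the same nuclei.

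Of the members highest in neuron-like nuclei, Pcdh15 had the largest ratio to the next class. Pcdh15, known as a part of the tip link of hair cells, was at 2922 and 3651 CPM in the Control libraries, 3686, 2989 and 3609 CPM in the Stress libraries and 3264 CPM in the Dexamethasone library. Neuron-like nuclei were its highest class in 6 of 6 libraries, and the next class over all libraries, fibroblast-like, was at 207 CPM. Pcdh9, a delta protocadherin of developing circuits, was at 2254 and 2415 CPM in Control, 1408, 3466 and 2389 CPM in Stress and 1999 CPM in Dexamethasone neuron-like nuclei, and also highest there in 6 of 6 libraries. Fibroblast-like nuclei followed at 680 CPM and glia-like nuclei at 614 CPM, so Pcdh9 was spread more widely than Pcdh15. Of the type II cadherins, Cdh18 was at 335 CPM against 51.3 CPM in smooth muscle-like nuclei, Cdh12 at 270 CPM against 72.2 CPM in enteroendocrine-like nuclei, which rest on 5 UMIs, and Cdh8 at 309 CPM against 67.6 CPM in glia-like nuclei. For Cdh8 the summed level came from few nuclei: 1260 of its 1378 neuronal UMIs lay in the 56 nuclei of 1 neuronal cluster, the other 423 neuron-like nuclei were at 31.8 CPM, and 12.7% of neuron-like and 12.4% of glia-like nuclei had a UMI. Cdh7 was low, at 14.6 CPM with 65 UMIs, yet those were nearly all its UMIs in the named classes, glia-like nuclei having 2. Cdh20, Pcdh20 and Pcdh11x were also highest in neuron-like nuclei, but their intervals overlapped those of the next class. Cdh6 was at 258 CPM against 175 CPM in glia-like nuclei and Pcdh10 at 82.5 against 63.9 CPM. Outside the cluster of 56 nuclei that held most Cdh8 UMIs, neuron-like nuclei had Cdh6 at 62.2 and Pcdh10 at 22.3 CPM, below the glia-like levels. Neuron-like nuclei were highest for Cdh6 in 2 of 6 libraries and for Pcdh10 in 5 of 6.

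As class sums, glia-like nuclei were highest for Cdh2, Cdh4 and Cdh10, with intervals apart from the next class. Cdh2, N-cadherin, the classical cadherin of neural and crest-derived cells, was at 1458 and 1401 CPM in Control, 1176, 1331 and 1484 CPM in Stress and 1076 CPM in Dexamethasone glia-like nuclei. In neuron-like nuclei it was at 778 and 763, then 490, 895 and 765, and 782 CPM in the same order. Every glial class sum was thus above every neuronal one. Parts of the classes did overlap. Over all libraries, Cdh2 was at 1294 CPM in 26 neuron-like nuclei led by Nmu and 1095 CPM in 44 led by Sst. The glial cluster led by Arih1 was at 1178 CPM. Every class outside the nervous system was at or below 202 CPM for Cdh2. Cdh4, R-cadherin, was at 175 CPM in glia-like nuclei, 31.5 CPM (8 UMIs) in cycling nuclei and 13.2 CPM in neuron-like nuclei. Glia-like nuclei were its highest class in 5 of 6 libraries. Cdh10, a type II cadherin, was at 102 CPM in glia-like against 33.4 CPM in neuron-like nuclei. It was at 174 CPM (39 UMIs) in 26 neuron-like nuclei led by Glp2r and at 108 CPM in the Sst-led ones. Cdh24, another type II cadherin, was at 23.2 CPM with 75 UMIs, and its interval overlapped that of enteroendocrine-like nuclei, which had 1 UMI.

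The mesenchymal classes shared Pcdh7 and Cdh11. Pcdh7, a delta protocadherin, was highest in fibroblast-like nuclei (2553 CPM; 1822 to 3059 CPM by library), followed by smooth muscle-like nuclei (1758 CPM), glia-like nuclei (795 CPM) and neuron-like nuclei (543 CPM), and fibroblast-like nuclei led in 6 of 6 libraries. Epithelium-like nuclei were at 15.4 CPM. Cdh11, OB-cadherin, the cadherin of mesenchyme, was at 397 CPM in fibroblast-like and 276 CPM in smooth muscle-like nuclei, with neuron-like nuclei at 201 CPM. Its fibroblast-like values ran from 202 to 554 CPM by library and overlapped the smooth muscle-like range of 204 to 335 CPM. The ranges thus do not separate these neighbours, though fibroblast-like nuclei were its highest class in 5 of 6 libraries. Pcdh19, mutated in a female-limited epilepsy in people, was at 88.5 CPM (41 UMIs) in fibroblast-like against 53.8 CPM in neuron-like nuclei. Cdh9 (11 UMIs), Pcdh18 (7 UMIs) and Cdh23 (6 UMIs) were also highest in fibroblast-like nuclei, on too few molecules for an order of levels.

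Endothelial and epithelial classes had members named for those tissues. Cdh5, VE-cadherin, the junctional cadherin of endothelium, was at 414 CPM in the 37 vascular endothelium-like nuclei and 189 CPM in lymphatic endothelium-like nuclei, and had 1 UMI in glia-like, 1 in neuron-like and 0 in the other 5 classes. Cdh13, T-cadherin, which is held in the membrane by a lipid anchor, was at 770 CPM in vascular endothelium-like nuclei (52 UMIs, 29 of them from Control 2, and 137 CPM in Stress 2, which had the most such nuclei), 492 CPM in smooth muscle-like, 393 CPM in fibroblast-like and 217 CPM in lymphatic endothelium-like nuclei. Pcdh17, a delta protocadherin that recruits actin regulators, was at 296 CPM (20 UMIs) and 152 CPM (49 UMIs) in the vascular and lymphatic classes, and at 133 CPM in glia-like nuclei. Pcdh1 was highest in vascular endothelium-like nuclei on 5 UMIs, with neuron-like nuclei at 61.4 CPM from 274 UMIs. Cdh1 was at 2181 CPM in epithelium-like, 645 CPM in cycling and 447 CPM in enteroendocrine-like nuclei, and at most 74.0 CPM in the other 6 classes. Of the 4324 Cdh1 UMIs in kept nuclei, 3021 lay in the named classes and the rest in unnamed clusters. Cdh17, LI-cadherin, an intestinal cadherin with a short tail, followed the same order over its first 2 classes, with 501 and 205 CPM. Both were highest in epithelium-like nuclei in 5 of 5 libraries with at least 10 such nuclei. The low Cdh1 level in neuron-like nuclei (29.4 CPM) stood beside epithelial markers summing to 178 to 642 CPM there by library, with all 14 of those markers counted, against 8600 CPM or more in epithelium-like nuclei. The part of free RNA in that level was not tested.

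**Figure D2:**
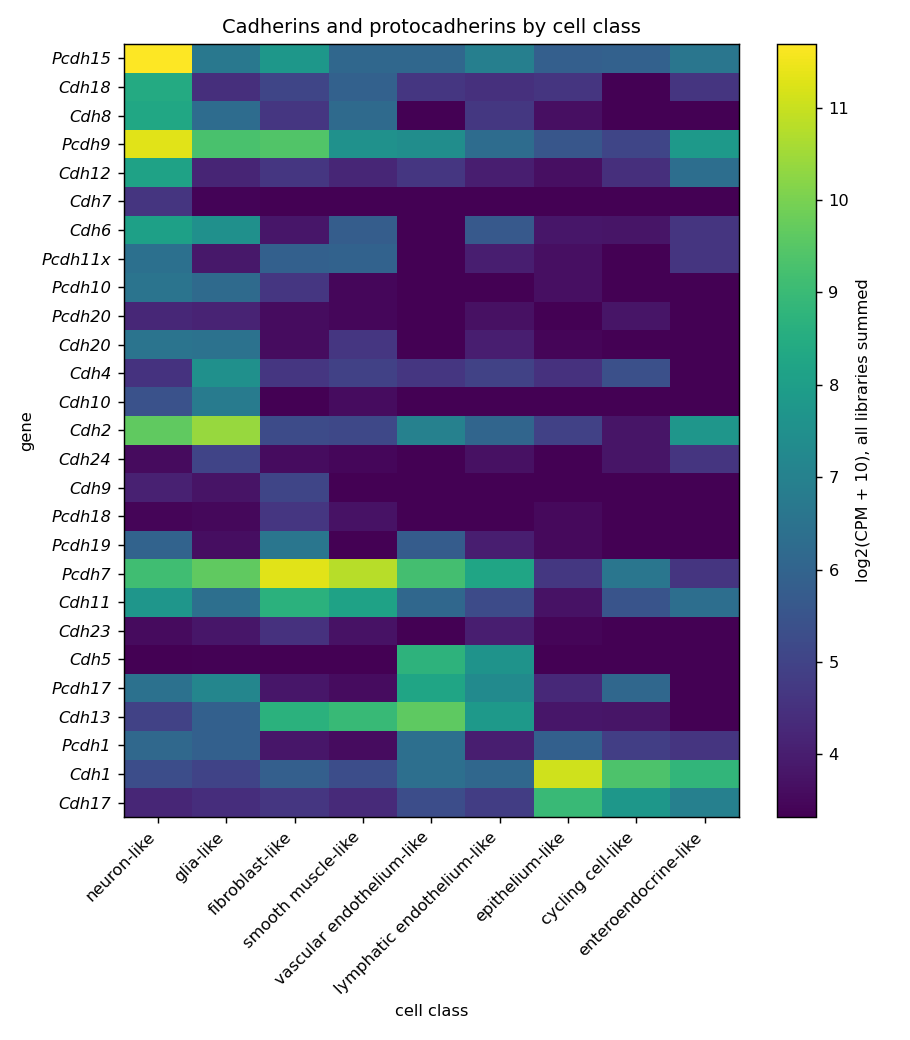
Level of each member with at least 20 UMIs (rows) in each cell class (columns) as log2 of CPM with 10 added, over the summed UMIs of all libraries, rows ordered by their highest class. Pcdh15 and Pcdh9 are brightest in neuron-like nuclei, Cdh2 in glia-like, Pcdh7 in fibroblast-like and Cdh1 in epithelium-like nuclei.

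Genes with the most similar pattern were found for the leading member of each class by Pearson's r of log levels over 40 sums of a library and a class. The sums share libraries and depth, and r is given as a description. The nearest to Pcdh15 were Rbfox1 (r = 0.909), Dscam (0.896) and Chga (0.890), the nearest to Cdh1 were Dsp (0.936), Rab11fip1 (0.934) and Abcb1a (0.920), and the nearest to Cdh5 were Tie1 (0.986), Adgrl4 (0.980) and Apold1 (0.967). Cdh4, leading in glia-like nuclei, was nearest to Bbox1 (0.811), Tacr3 (0.783) and Ccdc146 (0.753). Pcdh19, with the largest ratio to the next class in fibroblast-like nuclei among members of at least 20 UMIs in that class, was nearest to Kcnk2 (0.921), Dnm1 (0.876) and Gpr153 (0.849).

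Among neuron-like nuclei, members separated a small cluster of 56 nuclei led by Nmu, the neuromedin U gene that marks intrinsic sensory neurons, from the 3 others, which were led by Nos1 and Vip (207 nuclei), Sst (123 nuclei) and Tac1 and Penk (93 nuclei). The Nmu cluster had 14 and 9 nuclei in Control, 4, 17 and 8 in Stress, with 4 under Dexamethasone. It was mixed: 26 of its nuclei fell in a sub-cluster led by Nmu (5 and 4 in Control, 1, 10 and 4 in Stress, 2 under Dexamethasone) and 28 in one led by Klhl1 and Gna14, where Nmu was at 0 CPM. Cdh8 was at 2039 and 1162 CPM there in Control, 445, 2075 and 1541 CPM in Stress and 1320 CPM in Dexamethasone. In the Nos1 and Vip cluster Cdh8 did not pass 12.4 CPM in any library, and the next cluster over all libraries, Sst, was at 166 CPM against 1690 CPM. Cdh6 was at 753 and 1456 CPM in Control, 349, 1638 and 1314 CPM in Stress and 199 CPM in Dexamethasone Nmu nuclei, against 82.9 CPM in the next cluster over all libraries. The Dexamethasone value, of 16 UMIs, was the lowest, and in that library the Sst cluster was level with it. Pcdh9 was at 12084 and 8455 CPM in Control, 3843, 10474 and 8042 CPM in Stress and 8651 CPM in Dexamethasone Nmu nuclei, against 1536 CPM in the Nos1 and Vip cluster, and every library had it highest there. Pcdh10, a delta protocadherin whose tail binds actin regulators, was at 382 CPM over all libraries against 55.1 CPM in the Tac1 and Penk cluster, but 119 and 142 of its 285 UMIs came from Stress 2 and Stress 3, and the Nmu cluster was its highest in 4 of 6 libraries. Pcdh11x, of the X chromosome, was at 354 against 26.7 CPM. Pcdh15 went the other way: 597 CPM in the Nmu cluster, and 3498 to 4366 CPM in the others. Within each library, Pcdh15 was lower in the Nmu cluster than in any other, between 87.1 and 1778 CPM.

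The upstream sequences of 4 of the 9 members highest in the Nmu cluster over all libraries are shown. They were taken because Pcdh10 and Cdh8 were also the 2 members that passed a test below. Pcdh11x, Cdh2, Cdh9, Cdh12 and Cdh18 were highest there as well and are not shown. The sequences are the 250 bases before the start site in RefSeq (GRCm38.p6), 5′ to 3′ on the gene's strand, and 22 of 90 member symbols matched that table. Capitals mark the half-site of glucocorticoid response elements, AGAACA or its complement TGTTCT, and the half-site of cAMP response elements, TGACG or its complement CGTCA, searched on both strands with these letters. Both were chosen with earlier results of these data known. The sites are Pcdh10 at chr3:45378148-45378397 (plus strand), Cdh8 at chr8:99416472-99416721, Cdh6 at chr15:13173676-13173925 and Pcdh9 at chr14:93890680-93890929 (all 3 minus strand; the first of 2 entries for Pcdh9).
Pcdh10: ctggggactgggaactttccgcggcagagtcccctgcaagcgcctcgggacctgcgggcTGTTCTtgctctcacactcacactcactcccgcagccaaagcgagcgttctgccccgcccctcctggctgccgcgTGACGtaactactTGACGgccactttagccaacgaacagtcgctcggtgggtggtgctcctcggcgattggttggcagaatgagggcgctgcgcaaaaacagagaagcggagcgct
Cdh8: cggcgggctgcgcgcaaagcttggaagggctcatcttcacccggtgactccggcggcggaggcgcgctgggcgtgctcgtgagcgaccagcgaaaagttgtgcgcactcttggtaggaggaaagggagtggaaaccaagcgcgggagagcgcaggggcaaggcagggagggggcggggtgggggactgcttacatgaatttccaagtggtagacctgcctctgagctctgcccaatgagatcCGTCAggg
Cdh6: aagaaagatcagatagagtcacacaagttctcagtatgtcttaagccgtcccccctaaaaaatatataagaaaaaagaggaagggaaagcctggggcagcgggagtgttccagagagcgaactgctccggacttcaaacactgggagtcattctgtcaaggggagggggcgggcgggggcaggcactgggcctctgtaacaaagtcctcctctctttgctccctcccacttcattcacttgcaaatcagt
Pcdh9: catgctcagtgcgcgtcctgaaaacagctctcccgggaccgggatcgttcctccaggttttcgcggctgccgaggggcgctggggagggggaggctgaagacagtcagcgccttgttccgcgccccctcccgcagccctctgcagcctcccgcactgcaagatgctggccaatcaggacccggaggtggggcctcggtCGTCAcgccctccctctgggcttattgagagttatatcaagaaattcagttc
The Pcdh10 sequence held 1 glucocorticoid half-site, whose first base is 191 bases before the start, and 2 cAMP half-sites. The Cdh8 and Pcdh9 sequences held 1 cAMP half-site each and no glucocorticoid half-site, and the Cdh6 sequence held neither. Over 32851 promoter windows of the same length, 16.1% held the glucocorticoid letters and 17.8% the cAMP letters, and among 25 windows of members 2 and 4 did. A match describes letters, not binding.

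The Sst cluster and the Nos1 and Vip cluster also differed in members. The Sst cluster was mixed: 44 of its nuclei fell in a sub-cluster led by Igha and Brinp2 and 43 in one led by Sst. A further 24, of which 22 came from Control 1, fell in one led by Cyp2c55, a gene of epithelium. Among all neuron sub-clusters, Pcdh7 was highest in the Igha and Brinp2 one, at 2226 CPM. In the Sst cluster, Pcdh7 was at 1249 and 1887 CPM in Control, 4205, 2184 and 1686 CPM in Stress and 1271 CPM in Dexamethasone, the highest of the 4 clusters in 6 of 6 libraries. The Nmu cluster followed at 579 CPM, though its Nmu-led nuclei had only 28 UMIs of Pcdh7, and the Nos1 and Vip cluster was lowest at 230 CPM. Pcdh17 was at 279 CPM in the Sst cluster and 62.8 CPM in the Nos1 and Vip cluster, with the Sst cluster highest in 4 of 6 libraries, and at 0 UMIs in the Sst nuclei of Stress 1, which had 5 of them. Cdh12 was low in the Sst cluster, at 23.3 CPM, and at 389, 368 and 149 CPM in the Nmu, the Nos1 and Vip, and the Tac1 and Penk clusters. Pcdh19 was at 85.5 CPM in the Nos1 and Vip cluster (71.6 to 106 CPM by library) and 41.8 CPM in the Tac1 and Penk cluster. Cdh18 was at 616 and 613 CPM in the Nmu and the Tac1 and Penk clusters (8.94 CPM, of 5 UMIs, in the 26 Nmu-led nuclei of the first), and at 81.9 CPM in the Nos1 and Vip cluster.

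**Figure D3:**
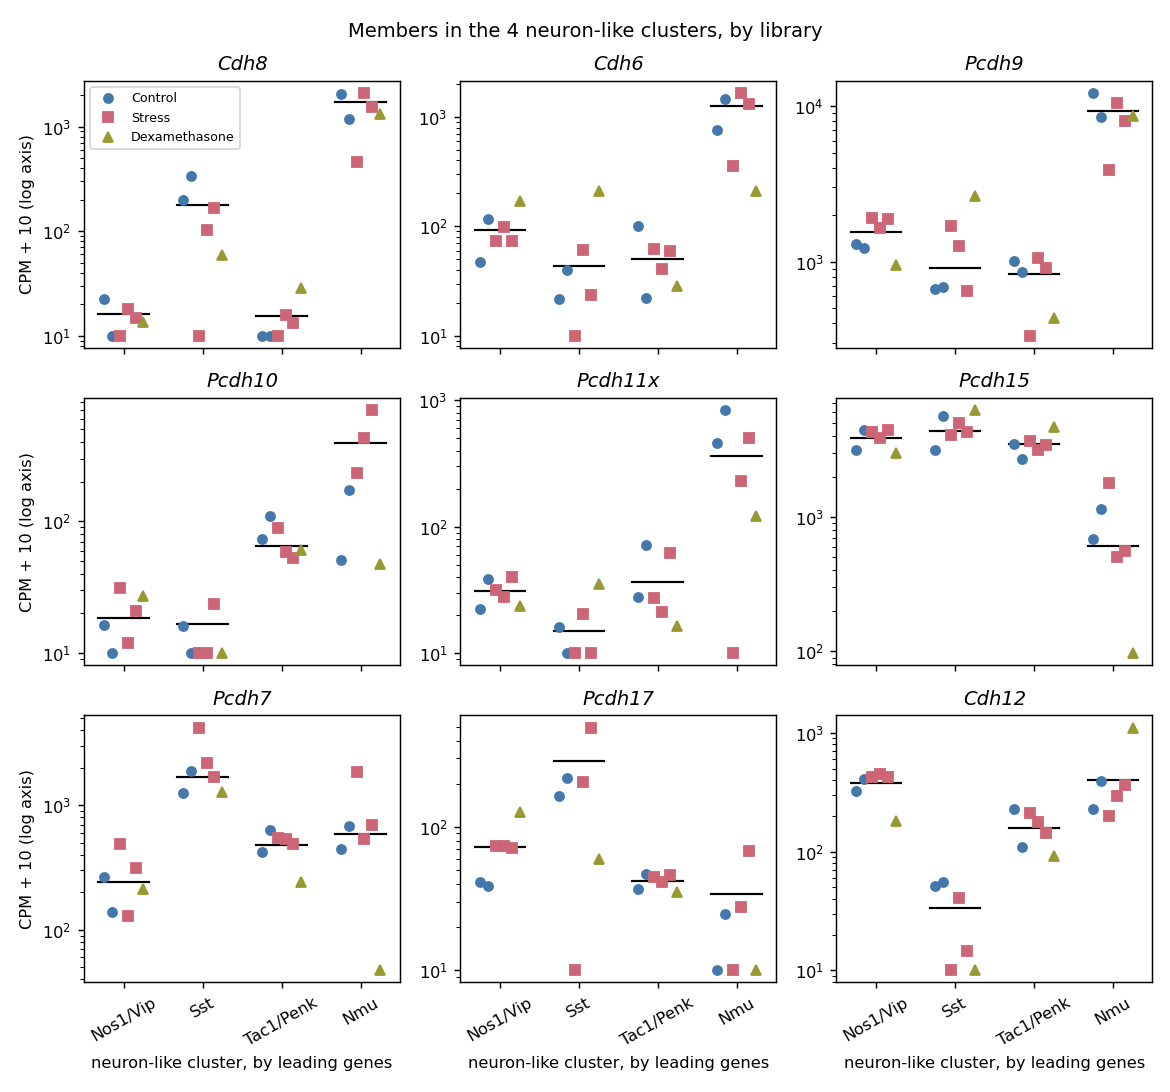
Level of 9 members (CPM with 10 added, log axis) in each of the 4 neuron-like clusters, 1 point per library by group, with a line at the level over all libraries. By the lines, Cdh8, Cdh6, Pcdh9, Pcdh10 and Pcdh11x stand highest in the Nmu cluster, with Pcdh10 carried by Stress 2 and Stress 3, Pcdh15 stands lowest there, and Pcdh7 and Pcdh17 stand highest in the Sst cluster.

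Splitting the neuron-like nuclei further gave 12 sub-clusters. The 3 led by genes of epithelium, secretory epithelium or glia are left out of the order of types, a choice made after seeing them. A further sub-cluster, of 52 nuclei led by Igha and Brinp2, carried immunoglobulin genes of plasma cells and was kept. The sub-cluster of 29 nuclei led by Klhl1 and Gna14 was kept as well. Its leading genes included Atp12a, also a leading gene of an epithelium-like cluster, and Cdh1 was at 145 CPM (28 UMIs) in it. A sub-cluster of 26 nuclei led by Nmu carried the same 5 members as above at still higher levels: Cdh8 at 2243 CPM, Cdh6 at 1623, Pcdh9 at 11219, Pcdh10 at 500 and Pcdh11x at 468 CPM, with a median of 16454 UMIs per nucleus, and Pcdh15 at 147 CPM. Cdh18 was at 2335 CPM in 29 nuclei led by Klhl1 and Gna14, against 655 CPM in the next sub-cluster. Pcdh17 was at 446 CPM in 44 Sst-led nuclei, and Pcdh19 at 167 CPM in 43 nuclei led by Gal, where it was highest in 3 of 3 libraries with at least 10 such nuclei. Pcdh15 was at 6145 CPM in 119 nuclei led by Opcml and 5651 CPM in the Sst-led nuclei. Pcdh7 did not separate 52 nuclei led by Igha and Brinp2 (2226 CPM) from the Klhl1 group (2102 CPM).

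Across the groups, the members that passed a test were Pcdh10 and Cdh8, both in Dexamethasone against Control in glia-like nuclei. There, 1 of 17 tested members rose and 1 fell by edgeR's quasi-likelihood test at an adjusted p of 0.05, against 5.96% of 7674 genes called, of which 408 rose and 49 fell. The other 74 members did not pass the filter on low counts. The median log2 fold change of the 17 was -0.22, and of all genes tested -0.06. Pcdh10 (chr3:45378398-45435623, plus strand) was at 12.8 and 34.2 CPM in Control, 48.3, 67.0 and 66.4 CPM in Stress and 120 CPM in Dexamethasone glia-like nuclei, from 6, 15, 15, 32, 58 and 81 UMIs. The 3 groups did not overlap. Its log2 fold change in Dexamethasone was 2.45 ± 0.42 (SE) with an adjusted p of 0.00133 (edgeR), and it was called under every alternative but one. Cdh8 (chr8:99024471-99416471, minus strand) was at 72.8 and 86.7 CPM in Control, 90.2, 69.1 and 76.7 CPM in Stress and 28.2 CPM in Dexamethasone. The Dexamethasone value, of 19 UMIs, was below the 5 others, and the log2 fold change was -1.40 ± 0.41 with an adjusted p of 0.0482 (edgeR). That call was lost under 13 of 15 alternatives, among them DESeq2 (adjusted p = 0.321) and no mitochondrial filter, which gave -0.15. In some of these another member was called: Cdh20 fell without Control 1 (-1.74, adjusted p = 0.0223, edgeR) and without Control 1 and Stress 1 together (-1.68, adjusted p = 0.0272), and Cdh6 rose with no mitochondrial filter (1.41, adjusted p = 0.0433) and without Stress 2 (1.29, adjusted p = 0.0261). With 1 Dexamethasone library, the test takes its spread from the other groups.

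The 3 glial clusters held these UMIs in different shares. The cluster led by Arih1, Nr4a3, Nr4a2 and Crem held 4.0 and 3.62% of the glia-like nuclei in Control, 8.06, 22.9 and 43.5% in Stress, with 69.9% under Dexamethasone, and its nuclei had a median of 5323 UMIs against 2680 in the cluster led by Col11a1 and Frzb. In the Arih1 cluster Pcdh10 had 1 and 0 UMIs in Control, 4, 8 and 44 in Stress (98.9, 51.1 and 92.6 CPM), with 76 under Dexamethasone (156 CPM), and Cdh8 was at 20.5 CPM in Dexamethasone against 49.5 to 120 CPM in the 5 other libraries. Control 1, Control 2 and Stress 1 had 37665, 25003 and 40436 UMIs over all genes in that cluster, so their Cdh8 levels rest on few molecules. In the Col11a1 cluster Pcdh10 was at 13.4 and 41.2 CPM in Control, 46.6, 69.3 and 42.5 CPM in Stress and 42.4 CPM in Dexamethasone, so that both Control libraries lay below the 4 others there, with Control 2, Stress 3 and Dexamethasone between 41.2 and 42.5 CPM. Cdh8 was at 80.5 and 93.4, then 97.5, 56.3 and 88.3, and 76.3 CPM there. The Dexamethasone library had 22 nuclei and 117968 UMIs over all genes in the Col11a1 cluster. Its levels there rest on few molecules, and a call missing there cannot show that a change was absent. With the Col11a1 cluster alone, an alternative chosen after seeing the data, the log2 fold change in Dexamethasone was 0.49 for Pcdh10 (adjusted p = 0.862, edgeR) and -0.33 for Cdh8 (adjusted p = 0.859), and none of the 16 members tested was called, against 0.181% of 6092 genes. Smooth muscle markers in glia-like nuclei also moved with Dexamethasone, summing to 762 CPM against 150 to 372 CPM in the other libraries with all 10 counted, and their part in the result was not tested. In sums over nuclei of this kind, more RNA per nucleus and more nuclei of one state cannot be told apart.

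**Figure D4:**
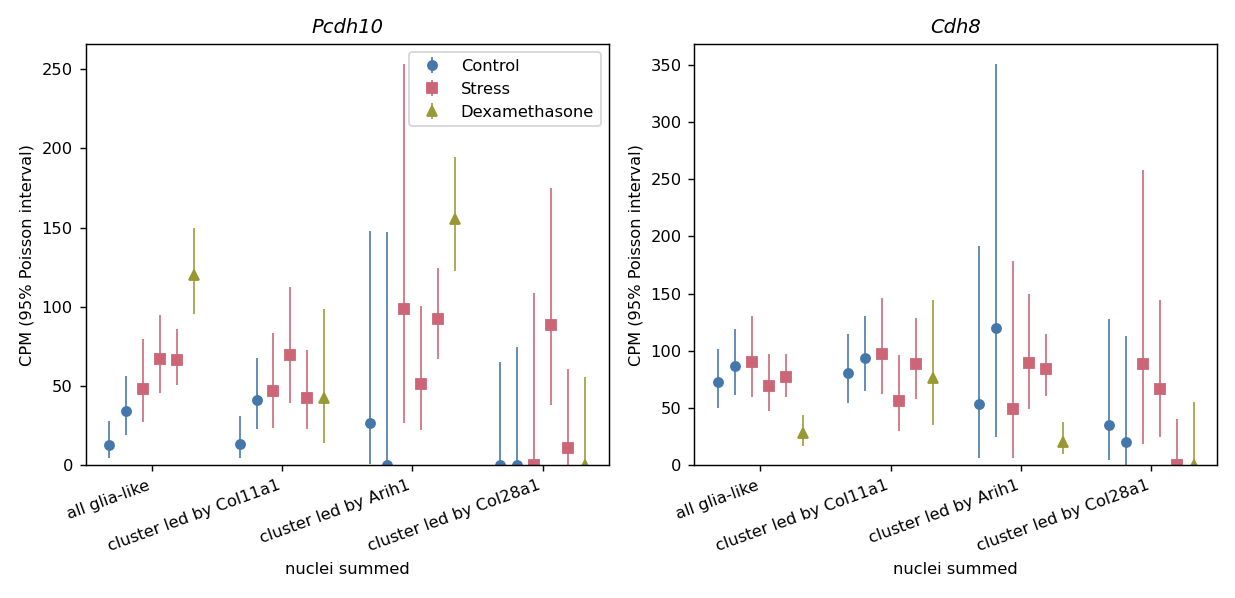
Pcdh10 (left) and Cdh8 (right) in CPM with 95% Poisson intervals, 1 point per library by group, over all glia-like nuclei and in each of the 3 glial clusters named by a leading gene. Over all glia-like nuclei Pcdh10 is lowest in Control and highest in Dexamethasone. It is at 42.4 CPM in the 22 Dexamethasone nuclei of the Col11a1 cluster, while the Arih1 cluster holds its highest value of 156 CPM.

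In Stress against Control, no member of 16 tested was called in glia-like nuclei by edgeR (2 at an unadjusted p under 0.05) or DESeq2, against 2.05% of 6543 genes called. Pcdh10 had the smallest p: its log2 fold change was 1.36 ± 0.39 (adjusted p = 0.105, edgeR), and the lowest Stress library was above the highest Control library. Without Control 2 it was 2.20 (adjusted p = 0.0383), and without Control 1, 0.82. Cdh6 was next at 0.96 ± 0.40 (adjusted p = 0.314), with 1 Stress library inside the Control range, and Cdh24 followed at 0.92 ± 0.53. Downward, Pcdh15 was at -0.46 ± 0.23, Cdh13 at -0.46 ± 0.35 and Cdh1 at -0.58 ± 0.50. The libraries of the 2 groups did not overlap for 3 of the 16 (Pcdh10, Pcdh15 and Cdh24), against 29.6% of all genes tested. With no mitochondrial filter Pcdh10 (0.99, adjusted p = 0.0266) and Cdh6 (1.37, adjusted p = 0.0337) were called. In Dexamethasone, the other members of smallest p were Cdh6 at 1.29 ± 0.46 and Pcdh1 at 1.18 ± 0.50 upward, with Cdh20 at -1.13 ± 0.53 and Cdh10 at -0.85 ± 0.41 downward, none of them called. The Dexamethasone library lay outside the Control range for 15 of 17 members, against 74.9% of all genes. Cdh6 turned to -1.19 in the Col11a1 cluster alone.

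In neuron-like nuclei no member of 20 tested was called in Stress against Control by edgeR (3 at an unadjusted p under 0.05) or DESeq2, and no gene of 7978 was called at all (0%) by edgeR, with 817 at an unadjusted p under 0.05 and 16 called by DESeq2. Pcdh10 again had the smallest p among members. It was at 19.3 and 53.5 CPM in Control, 72.8, 110 and 120 CPM in Stress and 28.1 CPM in Dexamethasone, so that Stress stood above Control without overlap while Dexamethasone lay inside the Control range. The log2 fold change in Stress was 1.65 ± 0.36 (adjusted p = 0.192, edgeR). The UMIs lay mostly in the Nmu cluster, where Pcdh10 was at 41.1 and 162 CPM in Control, 222, 416 and 686 CPM in Stress and 37.3 CPM in Dexamethasone, from 3, 11, 7, 119, 142 and 3 UMIs. Without that cluster the log2 fold change was 0.15 (adjusted p = 0.973), an alternative chosen after seeing the data, and with the stricter filter on nuclei it was 0.51 (adjusted p = 0.953). Within that cluster, 280 of the UMIs lay in the 26 nuclei of the Nmu-led sub-cluster, where the libraries had 1 to 10 nuclei each and Pcdh10 was at 58.6 and 201 CPM in Control, 1025, 478 and 884 CPM in Stress, with 61.4 under Dexamethasone.

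Cdh1 and Cdh13 were the members of smallest p downward in Stress neurons. The Control libraries had Cdh1 at 72.7 and 25.3 CPM and the Stress libraries at 8.1, 20.9 and 8.8 CPM, a log2 fold change of -1.99 ± 0.50 (adjusted p = 0.257, edgeR), with 57.9 CPM in Dexamethasone. Epithelial markers in the same nuclei moved with it, summing to 642 and 546 CPM in Control, 178, 387 and 228 CPM in Stress and 396 CPM in Dexamethasone, and their part was not tested. Of the Control 1 nuclei, 23 fell in a sub-cluster of 25 led by Cyp2c55, Zg16 and Pigr, genes of epithelium, which held 21 Cdh1 UMIs. Without that sub-cluster, an alternative chosen after seeing the data, the log2 fold change of Cdh1 was -1.43 (adjusted p = 0.354, edgeR). Cdh13 was at -1.65 ± 0.59, with 1 Stress library inside the Control range, and Pcdh11x at -0.76 ± 0.50. Upward, Cdh11 was at 0.25 ± 0.19 and Pcdh19 at 0.31 ± 0.27. The groups did not overlap for 2 of 20 members (Pcdh10 and Cdh1), against 29.0% of all genes. In Dexamethasone, 0 of 22 tested members were called by edgeR (3 at an unadjusted p under 0.05) or DESeq2, against 0.0545% of 9177 genes. Pcdh7 was at 263 CPM there and at 492 to 785 CPM in the 5 other libraries, a log2 fold change of -1.26 ± 0.32 (adjusted p = 0.228). The Sst cluster, where Pcdh7 was highest, gave 24.9 and 18.8% of the neuronal UMIs in Control, 2.89, 7.84 and 16.2% in Stress, with 7.04% under Dexamethasone. Its Control 1 nuclei included 22 of the sub-cluster led by Cyp2c55. Without the Sst cluster, an alternative chosen after seeing the data, the change was -0.97 (adjusted p = 0.488, edgeR). Smooth muscle markers in neuron-like nuclei summed to 1050 CPM in Dexamethasone and 174 to 496 CPM in the others, and their part was not tested. Cdh10 was at -1.68 ± 0.59 and Pcdh11x at -2.14 ± 0.80. The Dexamethasone library lay outside the Control range for 14 of 22 members, against 69.8% of all genes. The 39 Dexamethasone nuclei of the unnamed cluster led by Penk, Tac1 and Syt4 were not part of this comparison. Upward, Cdh18 (0.39 ± 0.43), Cdh11 (0.22 ± 0.26) and Cdh17 (0.92 ± 1.04) were within about 1 SE of 0.

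The stress effects of neuron-like and glia-like nuclei were compared in 1 model, in which 0 of 21 tested members were called by edgeR (2 at an unadjusted p under 0.05) or DESeq2, against 0.0733% of 8189 genes. The effect on Pcdh10 differed by 0.07 ± 0.50 on the log2 scale. The smallest p went to Cdh13 (-1.14 ± 0.50) and Cdh1 (-1.33 ± 0.64), with an adjusted p of 0.539 and 0.603, and Pcdh11x followed at -2.06 ± 1.21. Upward, Pcdh15 was at 0.45 ± 0.38, Pcdh19 at 0.84 ± 1.17 and Cdh11 at 0.15 ± 0.36.

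**Figure D5:**
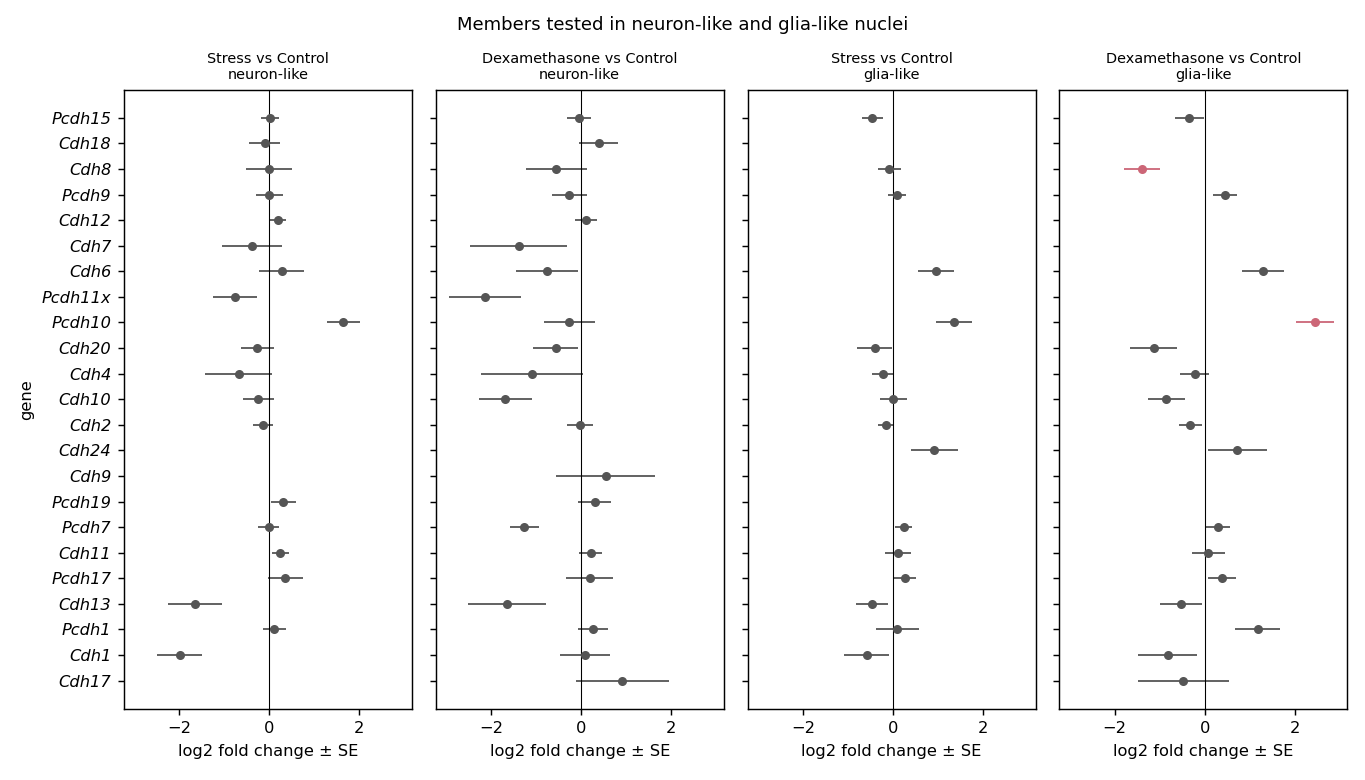
Log2 fold change with its SE for each member tested (rows) in neuron-like and glia-like nuclei, for Stress and Dexamethasone against Control, in red where the adjusted p is under 0.05. Pcdh10 at 2.45 and Cdh8 at -1.40 in Dexamethasone glia-like nuclei are the called members, and both treatments share the Control libraries.

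Outside the nervous system few members passed the filter on low counts, and none was called by edgeR or DESeq2. In fibroblast-like nuclei 5 were tested in Stress (1 at an unadjusted p under 0.05), against 1.45% of 1725 genes called. Pcdh9 was at 306 and 184 CPM in Control, 762, 378 and 1318 CPM in Stress and 656 CPM in Dexamethasone, with every treated library above both controls. Its log2 fold change was 1.67 ± 0.50 in Stress (adjusted p = 0.132) and 1.45 ± 0.55 in Dexamethasone (adjusted p = 0.22), where 6 members were tested (1 at an unadjusted p under 0.05) against 2.29% of 2833 genes. Neuron markers in fibroblast-like nuclei came to a sum of 248 and 239 CPM in the Control libraries, and of 141, 206 and 396 CPM under Stress. Pcdh15 in the same nuclei had 4 and 4 UMIs in Control, 0, 42 and 45 in Stress, with 1 under Dexamethasone. The libraries did not overlap for 1 of 5 members (Pcdh9) in Stress, against 29.7% of all genes, and for 4 of 6 in Dexamethasone, against 66.9%. Pcdh11x had 0 UMIs in both Control libraries and 20 of its 23 UMIs in Stress 3, and Pcdh15 was at -2.57 ± 1.64 in Dexamethasone. Pcdh7 (0.20 ± 0.29 under Stress, 0.49 ± 0.38 under Dexamethasone), Cdh11 (-0.03 ± 0.42 in Stress) and Cdh13 (-0.85 ± 0.44 in Stress) completed the members of smallest p.

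In smooth muscle-like nuclei 7 members were tested in Stress (0 at an unadjusted p under 0.05), against 0.29% of 2762 genes called, and 10 in Dexamethasone (3 at an unadjusted p under 0.05), against 0.241% of 3733 genes. Pcdh7 was at 2258 and 1722 CPM in Control, 2051, 1312 and 1403 CPM in Stress and 2173 CPM in Dexamethasone, and its log2 fold change in Stress was -0.41 ± 0.26. Cdh18 (-1.70 ± 1.00), Pcdh15 (-0.74 ± 0.60), Pcdh9 (0.49 ± 0.68) and Cdh13 (0.16 ± 0.32) had the other smallest p in Stress. In Dexamethasone, Pcdh11x was at 0 UMIs against 4, 12, 7, 9 and 16 in the other libraries, with an adjusted p of 0.14, and Cdh6 was at 0 UMIs against 9 and 3 in Control, and also at 0 in Stress 2. Pcdh15 (-2.62 ± 0.97), Cdh13 (0.45 ± 0.41), Pcdh9 (0.52 ± 0.75) and Cdh8 (0.17 ± 1.03) followed. Groups did not overlap for 0 of 7 members in Stress, against 29.9% of all genes, and 6 of 10 in Dexamethasone, against 63.0%.

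In epithelium-like nuclei 3 members were tested in Stress (1 at an unadjusted p under 0.05), against 0.108% of 2776 genes called. The 2 Control libraries had Cdh1 at 1485 and 1526 CPM, and the 3 Stress libraries, all above them, at 2280, 2472 and 2579 CPM, a log2 fold change of 0.79 ± 0.33 (adjusted p = 0.425, edgeR). The 14 epithelial markers in those nuclei came to 8600 and 10245 CPM (Control), then 10855, 11836 and 10807 CPM (Stress). The 2 epithelial clusters differed in share: the one with the higher Cdh1 (2457 against 1680 CPM) held 36 and 0 of 127 and 22 nuclei in Control and 25, 154 and 7 of 79, 180 and 25 in Stress. Within the other, the Control libraries had Cdh1 at 1308 and 1526 CPM and the Stress libraries, again all above them, at 1892, 1788 and 2548 CPM. Non-overlap over all epithelium-like nuclei held for 1 of 3 members, against 27.7% of all genes. Cdh17 (0.08 ± 0.34) and Pcdh15 (-0.18 ± 0.74) were near 0. The Dexamethasone library had 3 epithelium-like nuclei, and that comparison was not made.

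Partners of the family were read from 7 lists of 70 genes. None of the 12 catenins and plaque proteins, 10 desmosomal cadherins and partners, 5 nectins and afadin, 7 cadherin-cleaving enzymes or 7 repressors of E-cadherin was called in any comparison. Among the 12 regulators and effectors of clustered protocadherins, 1 of 10 tested rose in Stress glia-like nuclei, Smc1a, a cohesin subunit, by 1.18 ± 0.21 on the log2 scale (adjusted p = 0.0102, edgeR), against 2.05% of 6543 genes called. In Dexamethasone glia-like nuclei 2 of 10 rose: Smc1a by 2.33 ± 0.27 (adjusted p = 3.5e-05) and Smchd1, a chromatin silencer of such clusters, by 1.76 ± 0.31 (adjusted p = 0.00152), against 5.96% of 7674 genes. Smc1a had 52 and 48 UMIs in Control, 69, 136 and 229 in Stress, with 352 under Dexamethasone glia-like nuclei. The share of the Arih1 cluster moved with these values. The Col11a1 cluster had 22 Dexamethasone nuclei, too few for a missing call to show that a change was absent. In the Col11a1 cluster alone neither was called by edgeR: Smc1a was at 0.89 (adjusted p = 0.159) in Stress and -0.88 (adjusted p = 0.563) in Dexamethasone, and Smchd1 at 0.98 (adjusted p = 0.089) and -0.70 (adjusted p = 0.619). Of the 17 large and atypical cadherins, Clstn2, a calsyntenin, rose in Dexamethasone fibroblast-like nuclei, with 0 UMIs in either Control library, 3, 4 and 5 under Stress and 46 under Dexamethasone (adjusted p = 5e-05, edgeR), against 2.29% of 2833 genes. Neuron markers summed to 211 CPM in those nuclei, within the 141 to 396 CPM of the other libraries, and Clstn2 was among the leading genes of the Nmu cluster of neurons.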

How the data were processed

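The authors deposited UMI counts per gene and barcode as 10x matrices, made with Cell Ranger 4.0.0 for Control and Stress and 5.0.1 for Dexamethasone, per the file headers. The submitters' processing notes name the build mm10, and Cell Ranger 5 and 5.0 for all libraries, which differs from the headers of Control and Stress. Barcodes under 300 genes or over 5% mitochondrial reads were dropped, doublets were marked with scrublet (44 of 3461, left out), and nuclei were clustered in scanpy 1.11.5 (2000 variable genes without the members, 30 components, Leiden resolution 1). Clusters were named from marker lists. Counts were summed per library and class and tested with edgeR 4.0.16 (TMM, filterByExpr, quasi-likelihood F-test, Benjamini-Hochberg adjustment over all tested genes, threshold 0.05), with DESeq2 1.42.0 as an alternative. Dexamethasone was fitted over all 6 libraries. Named members were those called or the 3 of smallest p in each direction, the members of largest ratio per class, and a short set of well-known ones. Members and lists were chosen with earlier results of these data known. Scripts were tested on simulated data.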

Additional observations from a re-analysis of the deposited data

Results flagged for a closer look

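The stress difference of Cdh1 had opposite signs in 2 cell classes. In neuron-like nuclei its log2 fold change was -1.99, with each of the 3 Stress libraries below both Control libraries, and in epithelium-like nuclei it was 0.79, with each of the 3 Stress libraries above both. Neither value was called, and the difference between the classes was not tested. Cdh1 was listed for this difference between classes, so the pattern is no separate evidence. Libraries of the 2 groups did not overlap for 29.0% of all genes in neuron-like and 27.7% in epithelium-like nuclei. Summed epithelial markers moved with Cdh1, with at most 387 CPM in Stress against at least 546 CPM in Control neuron-like nuclei. In epithelium-like nuclei they were at least 10807 against at most 10245 CPM, and their part was not tested. Without a sub-cluster of epithelial genes, mostly from Control 1, the neuron-like value was -1.43, and within the 1 epithelial cluster present in all 5 libraries the 3 Stress libraries also stood above both Control libraries.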

How the results depend on the processing

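The named members' log2 fold changes changed sign in 62 repeats under another setting, 645 kept their direction and their side of the threshold, 25 passed it newly and 14 lost it. Called members in Dexamethasone glia numbered 2 and fell to 1 with DESeq2, no filter on low counts, the stricter nuclei, thinning or the replicate block, and to 0 with the Col11a1 cluster alone. Leaving out 1 library gave 1 to 2. In Stress glia the count was 0, 2 with no mitochondrial filter and 0 to 1 without 1 library. In neurons, Stress gave 0, 3 with no filter on low counts and 1 with the replicate block, and Dexamethasone 0, 2 and 1. Dexamethasone smooth muscle gave 0, 1 with no low-count filter, no mitochondrial filter or doublets kept, 2 without Control 1 and Stress 1 together, and 0 to 1 without 1 library. Stress fibroblasts gave the same counts under those settings, and Dexamethasone fibroblasts 1 with no mitochondrial filter. The cause of these differences was not tested.

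The values that changed sign follow as log2 fold changes. With DESeq2, in Stress epithelium Pcdh15 (0.094). Under the stricter filter (500 genes, 2% mitochondrial reads), in Dexamethasone fibroblast Pcdh15 (2.21), in Dexamethasone neuron Cdh11 (-0.24), in Dexamethasone smooth muscle Cdh8 (-0.23), in Stress epithelium Cdh17 (-0.19), in Stress fibroblast Cdh11 (0.29), in neuron-minus-glia Cdh11 (-0.28) and Cdh13 (0.13) and Cdh1 (0.41). With sums thinned to the smallest total, in Stress epithelium Cdh17 (-0.072), in Stress fibroblast Cdh11 (0.10), in Stress neuron Pcdh19 (-0.077), in Stress smooth muscle Cdh13 (-0.14), in neuron-minus-glia Cdh11 (-0.15). With doublets kept, in Dexamethasone fibroblast Pcdh15 (2.02), in Dexamethasone neuron Cdh18 (-0.86) and Cdh11 (-0.014), in Dexamethasone smooth muscle Cdh13 (-0.022) and Cdh8 (-0.012), in Stress fibroblast Cdh11 (0.083). With the Col11a1 cluster alone, in Dexamethasone glia Cdh6 (-1.19). Without Control 1 and Stress 1 together, in Stress fibroblast Cdh13 (0.18) and Cdh11 (0.58), in Stress glia Cdh13 (0.10), in neuron-minus-glia Pcdh19 (-3.40) and Cdh1 (0.16). With members and partners kept in the clustering, in Dexamethasone neuron Cdh18 (-0.74). Without the Nmu cluster, in Stress neuron Pcdh11x (0.18). With no filter on low counts, in Stress fibroblast Cdh11 (0.064). With no mitochondrial filter, in Dexamethasone fibroblast Pcdh7 (-0.082) and Pcdh15 (3.02), in Dexamethasone neuron Cdh11 (-0.38) and Cdh10 (0.26) and Pcdh11x (0.11), in Dexamethasone smooth muscle Cdh13 (-0.65) and Cdh8 (-0.62) and Pcdh15 (2.14), in Stress fibroblast Cdh11 (0.013), in Stress neuron Cdh11 (-0.22) and Pcdh11x (0.77), in neuron-minus-glia Cdh11 (-0.50) and Cdh13 (1.14) and Cdh1 (0.83) and Pcdh11x (1.09). With the replicate block, in Dexamethasone smooth muscle Cdh8 (-0.24), in Stress epithelium Cdh17 (-0.034), in Stress fibroblast Cdh11 (0.051). Leaving out 1 library gave Cdh11 in neuron-minus-glia -0.0103 to 0.34 (turned without Stress 2), Cdh11 in Stress fibroblast -0.54 to 0.85 (turned without Control 1 and Stress 2), Cdh13 in Stress fibroblast -1.40 to 0.11 (turned without Control 1), Cdh13 in Stress glia -0.88 to 0.0084 (turned without Control 1), Cdh13 in Stress smooth muscle -0.21 to 0.84 (turned without Control 2), Cdh17 in Stress epithelium -0.13 to 0.69 (turned without Control 2 and Stress 3), Cdh8 in Dexamethasone smooth muscle -0.52 to 6.00 (turned without Control 2). It also gave Pcdh11x in Stress neuron -1.46 to 0.15 (turned without Control 2), Pcdh15 in Stress smooth muscle -1.28 to 0.80 (turned without Control 1), Pcdh19 in neuron-minus-glia -3.18 to 1.61 (turned without Control 1), Pcdh9 in Dexamethasone smooth muscle -0.20 to 8.03 (turned without Control 2), Pcdh9 in Stress smooth muscle -0.24 to 7.95 (turned without Control 2 and Stress 1). Values above 5 come from fits whose remaining Control library had 0 UMIs and are no bound. Of these, Pcdh15 in Dexamethasone fibroblasts passed the threshold (adjusted p = 0.0158, edgeR, with no mitochondrial filter).

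The Col11a1 cluster alone and the neurons without the Nmu cluster, the Sst cluster or the Cyp2c55-led sub-cluster were alternatives chosen after seeing the data. Deviations of same-numbered libraries had correlations of -0.154 to 0.115 over 5 classes. With so few libraries in a group, these cannot show whether the numbers mark a shared batch, and the labels do not say. In Stress, the replicate block took the called genes from 0 to 63 in neurons and from 3 to 45 in epithelium. It took them from 25 to 8 in fibroblasts, from 8 to 2 in smooth muscle and from 134 to 125 in glia. The neuron-minus-glia model already holds the library as its block. With no mitochondrial filter the doublet caller marked 0.493% of 10343 barcodes, too few to count doublets as removed there. Epithelium had no value without that filter or with doublets kept. Few molecules limit most members: 34 of 91 had any UMI, and 1 Dexamethasone library gives that group no spread of its own.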
